A study of Saccharomyces eubayanus and Saccharomyces cerevisiae x Saccharomyces eubayanus with 20 samples.

Results

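Cytosolic ribosomal proteins, together with the ribosomal RNAs, form the ribosome. Genes named RPS encode proteins of its small 40S subunit and genes named RPL encode proteins of its large 60S subunit. The members described here were all annotated genes whose name consists of RPL or RPS, a number and an optional A or B, chosen by name alone. They were 122 of the 5513 genes quantified in the S. eubayanus strains, of which 5511 are S. eubayanus genes. Of the 122, 52 belong to the 40S and 70 to the 60S subunit. In the hybrid HTS020 they were 246 of 11292 genes, 122 of the S. eubayanus and 124 of the S. cerevisiae subgenome.

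In budding yeast, most of these genes exist as a pair of copies, A and B, left by an ancient duplication of the genome, and both copies encode the same or nearly the same protein. They are among the most heavily transcribed genes of a growing cell, and they are switched together by Rap1, Fhl1, Ifh1 and Sfp1 under control of nutrient signalling through TOR and protein kinase A. Many contain an intron, which few other yeast genes do. In S. cerevisiae the proteins of RPL30, RPS14B, RPL22B and RPS9A are known to act back on the processing of their own transcripts.

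Messenger RNA was sequenced from 20 cultures in 10 groups of 2, all grown on 20 g/L of a single sugar in shake flasks and sampled in mid-exponential phase. S. eubayanus CDFM21L.1, the Himalayan wild isolate, was sampled on glucose. Its derivatives IMX1765 and IMX1939 were sampled on glucose, maltose and maltotriose, as was HTS020, a laboratory hybrid of CDFM21L.1 with the ale yeast S. cerevisiae CBC-1. In IMX1765 both alleles of SeSGA1 were replaced by the S. cerevisiae maltose regulator ScMAL13 under the constitutive ScPGK1 promoter, and IMX1939 carries in addition a deletion of both alleles of the maltose transporter gene SeMALT1. Each genotype was thus represented by 1 strain, and nothing in the labels says how separate the 2 cultures of a group were, so p-values measure the spread between these cultures. The labels give 1 optical density at 660 nm, 12.5, for all 20 cultures, whereas the methods name a higher density for maltotriose cultures than for the others. If the methods hold, sugar and density cannot be told apart. For 3 hybrid cultures the label's free text names another sugar than its title and carbon source field, and the latter were used.

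The names given to the members in the deposited annotation came from protein similarity and often did not separate the copies of a pair. In S. eubayanus, 72 of the 122 rows shared their name with another row, and in the S. cerevisiae subgenome 50 of 124 did. Members were therefore named by the S. cerevisiae locus that has the same neighbouring genes, which placed 120 S. eubayanus and all 124 S. cerevisiae rows. By this criterion 39 S. eubayanus rows and 26 S. cerevisiae rows carried the name of the sister copy. RPL43A of S. eubayanus, for example, is annotated as RPL43B. This placement was chosen after seeing the data, and results on pairs are also given for names as annotated. RPS31, RPL40A and RPL40B, whose products are fused to ubiquitin, had no row under the rule and were not analysed here.

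Copies of a pair can be told apart by sequencing only where their letters differ, and the authors removed reads that mapped ambiguously. The last 60 coding bases (stop codon included) of the S. cerevisiae R64 genes, from RefSeq, illustrate this for the pairs on which the results below turn. They are shown from 5′ to 3′, with capitals marking the positions that differ between A and B when the windows are compared without gaps. RPS14A lies on chromosome III and RPS14B on chromosome X, and they differ at 3 of these bases.
RPS14A: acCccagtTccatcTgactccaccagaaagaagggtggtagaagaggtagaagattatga
RPS14B: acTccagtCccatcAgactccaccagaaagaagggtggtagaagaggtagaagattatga
RPS22A (chromosome X) and RPS22B (chromosome XII) differ at 8.
RPS22A: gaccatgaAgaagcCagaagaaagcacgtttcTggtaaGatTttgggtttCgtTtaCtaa
RPS22B: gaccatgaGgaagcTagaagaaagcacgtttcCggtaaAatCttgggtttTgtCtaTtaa
RPL22A (chromosome XII) and RPL22B (chromosome VI) have coding sequences of 366 and 369 bp. Without gaps their windows differ at 27 positions. Many of these capitals mark an offset of the windows and not substituted bases, so this count is not comparable with those of the other pairs.
RPL22A: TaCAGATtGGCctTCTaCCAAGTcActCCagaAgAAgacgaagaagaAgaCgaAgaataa
RPL22B: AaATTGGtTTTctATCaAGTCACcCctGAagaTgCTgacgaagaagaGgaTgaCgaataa
RPL9A (chromosome VII) and RPL9B (chromosome XIV) differ at 10.
RPL9A: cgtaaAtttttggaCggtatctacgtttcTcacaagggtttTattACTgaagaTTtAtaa
RPL9B: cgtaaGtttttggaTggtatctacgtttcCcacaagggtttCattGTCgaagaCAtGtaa
RPL1A (chromosome XVI) and RPL1B (chromosome VII) are shown for contrast, as this window is the same in both.
RPL1A: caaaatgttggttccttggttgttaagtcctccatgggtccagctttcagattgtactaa
RPL1B: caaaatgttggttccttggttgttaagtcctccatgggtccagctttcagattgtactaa

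Over the whole coding sequence, the identity of the A and B copies of S. cerevisiae was 99.4% for RPL1, 93.8% for RPL9, 92.1% for RPS14, 89.6% for RPS22 and 78.9% for RPL22. The longest stretch without a difference was 315 bp in RPL1, 110 bp in RPL9, 92 bp in RPS14, 35 bp in RPS22 and 23 bp in RPL22. A fragment within such a stretch cannot be assigned to a copy. The summed FPKM of the A and B copies in the S. eubayanus strains had a median of 2065 in the 16 pairs with a longest stretch under 50 bp, 2225 in 27 pairs with 50 to 147 bp and 3668 in 9 pairs with 152 to 465 bp.

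Library depth was 16874233 to 27175322 reads on genes in 19 libraries and 318922 in the first maltotriose culture of IMX1765, which is treated with caution throughout. The engineered genes matched the labels. FPKM of SeMALT1 on maltose was 14.1 and 16.2 in IMX1765 and 1.04 and 0.921 in IMX1939, and ScMAL13 was at 331 to 915 in the engineered strains against 0.214 and 0.104 in CDFM21L.1. Every member was detected in every library, with at least 52 reads in the library of few reads.

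Ribosomal protein genes took up a large share of all reads on glucose and a smaller one on maltose and maltotriose. On glucose, they held 19.7% and 19.6% of the reads in the 2 cultures of CDFM21L.1, 18.2% and 18.4% in IMX1765, 19.1% and 17.2% in IMX1939, and 19.7% and 20.0% in HTS020. On maltose the share was 15.1% and 12.5% in IMX1765, 12.6% and 11.4% in IMX1939 and 16.9% and 14.6% in HTS020. On maltotriose it was 8.96% and 5.90% in IMX1939 and 10.7% and 10.4% in HTS020. In each of these strains the sugars did not overlap. IMX1765 on maltotriose gave 9.62% in the deep library and 16.6% (95% Wilson interval 16.5% to 16.7%, for counting error only) in the library of few reads, which lies between its glucose and maltose values. With 2 cultures against 2, an exact permutation test cannot give a p below 1/3, so these shares were not tested.

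**Figure D1:**
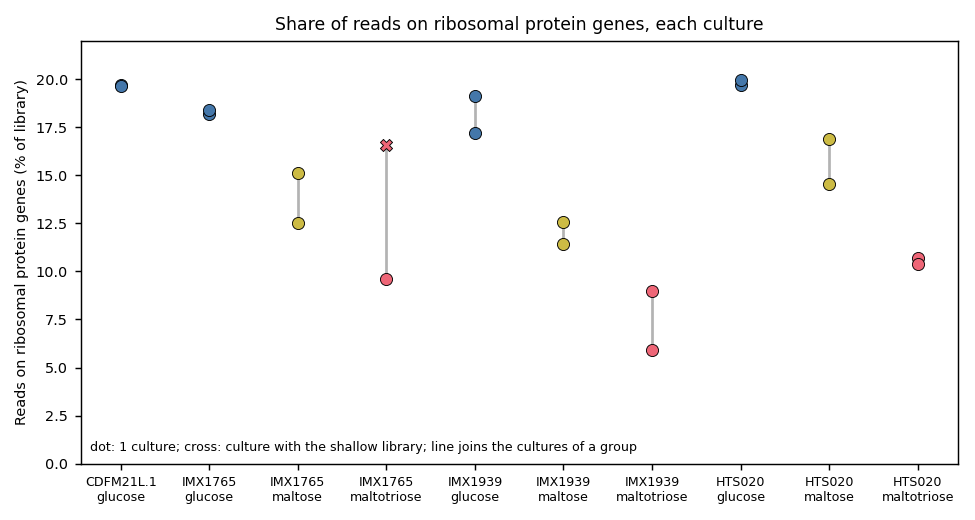
Share of all reads on genes that fell on ribosomal protein genes, in percent, for each of the 20 cultures. Dots are cultures, a grey line joins the 2 cultures of a group, and the cross is the library with 318922 reads. The shares lie between 17.2% and 20.0% on glucose and between 5.90% and 10.7% in the maltotriose cultures of IMX1939 and HTS020.

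Both subunits contributed to this in like proportion. In IMX1939 the 40S genes went from 8.28% and 7.43% of reads on glucose to 3.87% and 2.5% on maltotriose, and the 60S genes from 10.9% and 9.78% to 5.09% and 3.40%. In HTS020 the 2 subgenomes contributed nearly equally, as the S. eubayanus copies held 48.8% to 49.1% of the member reads in the 6 libraries, beside 48.0% to 50.6% of the reads on all genes. FPKM is relative to the total of a library, so that less ribosomal protein mRNA and more of other mRNA cannot be told apart.

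Levels between members are compared here as FPKM, which the authors divided by the annotated span including introns, and as recovered reads per kilobase of S. cerevisiae coding sequence, scaled to library size, which removes most of the effect of introns. Over the 14 S. eubayanus libraries, the mean FPKM of the members had a median of 1419 and ranged from 145 to 6564, while all genes had a median of 45.5. The median member was at percentile 97.0 of all genes and the lowest at 79.2. Members with an intron in S. cerevisiae had a median of 1057 FPKM and those without had 2290, but per coding length the medians were 2335 and 2539.

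The highest mean FPKM belonged to RPL43A (chromosome 16, 634522 to 634821, CDFM21L.1 assembly), whose cultures ranged from 2896 to 9316. It was followed by RPS20 with 5202, RPL38 with 4773, RPL10, a late-joining protein of the large subunit, with 4633, and RPS28A with 4371. Per coding length RPL43A was also highest, and RPL36B moved to the second place.
The lowest were RPL18B with 145 FPKM and a range of 42.7 to 273, RPS9A with 195, RPS22B with 359, RPS14B with 363 and RPL34A with 375.

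In HTS020, the mean FPKM had a median of 672 for S. eubayanus and 615 for S. cerevisiae members, beside 23.3 and 22.6 for all genes of these subgenomes. RPL38 of S. cerevisiae (3253), RPL43A of S. eubayanus (3149) and RPS25A and RPS20 of S. cerevisiae (2945 and 2924) were highest, followed by RPS28A of S. eubayanus (2870). The lowest were RPL15B of S. cerevisiae with 34.8 FPKM, RPL18B of S. cerevisiae with 54.4, RPS22B of S. eubayanus with 77.4, RPL22B of S. cerevisiae with 118 and RPS9A of S. cerevisiae with 126.

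The comparison of maltotriose with glucose in IMX1939 showed lower transcript levels of nearly the whole group. Of the 122 members, 119 fell and none rose (limma on log2(FPKM + 1), Benjamini-Hochberg adjusted p under 0.05 over 5404 genes). Among all genes, 39.8% passed the test and 16% were lower. The median log2 fold change was −1.32, with a range from −2.38 to −0.49, while that of all genes was 0.05. In all 122 members both maltotriose cultures were below both glucose cultures, which held for 31.8% of all genes. The fall did not differ visibly by class, with medians of −1.32 for 52 genes of the 40S and −1.31 for 70 of the 60S subunit, −1.33 for 84 genes with an intron in S. cerevisiae and −1.28 for 38 without, and −1.31 for both A and B copies. Without the first glucose culture 75 members passed and without the second maltotriose culture 60, with medians of −1.24 and −1.01.

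The members named for their roles moved with the rest. RPL10 had 5925 and 5414 FPKM on glucose and 2765 and 2052 on maltotriose, a log2 fold change of −1.25 ± 0.27 (SE, n = 2 cultures per group, limma adjusted p = 0.00695). RPL3, which lines the peptidyl transferase centre, went from 4180 and 3971 to 1997 and 1639 (−1.17 ± 0.24, limma adjusted p = 0.00496). RPL5 and RPL11 enter the large subunit together with the 5S rRNA. RPL5 went from 4269 and 3590 to 1791 and 1350 (−1.33 ± 0.26), RPL11A from 2943 and 2505 to 1359 and 871 (−1.32 ± 0.29) and RPL11B from 2019 and 1692 to 869 and 595 (−1.36 ± 0.30). RPL30, whose protein binds its own transcript, went from 3775 and 3530 to 1670 and 1025 (−1.48 ± 0.31). For these members the 2 sugars were separated by more than the difference between cultures, and the second maltotriose culture was always the lower.

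The largest falls were those of RPS28B, RPL9A, RPS22A and RPL22A. RPS28B had 4208 and 4012 FPKM on glucose and 1395 and 446 on maltotriose (log2 fold change −2.38 ± 0.57, limma adjusted p = 0.0103), and its maltotriose cultures differed strongly from each other. RPL9A went from 1831 and 1386 to 452 and 268 (−2.19 ± 0.41, limma adjusted p = 0.00382), RPS22A from 3157 and 2845 to 1115 and 573 (−1.91 ± 0.35) and RPL22A from 1423 and 1224 to 470 and 283 (−1.85 ± 0.36).
The 4 smallest changes were those of RPS14B, RPL22B, RPS22B and RPS9A. RPS14B had 319 and 299 FPKM on glucose and 278 and 173 on maltotriose (−0.49 ± 0.25, limma adjusted p = 0.135), and RPL22B had 467 and 387 against 354 and 219 (−0.61 ± 0.25, limma adjusted p = 0.0793), so neither passed the test. RPS22B fell from 493 and 417 to 347 and 220 (−0.71 ± 0.21, limma adjusted p = 0.0263). RPS9A had 184 and 176 against 157 and 75.9 (−0.71 ± 0.54, limma adjusted p = 0.312). RPS14A, the sister of RPS14B, fell from 2305 and 2108 to 1154 and 831 (−1.17 ± 0.24).

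On maltose the same strain gave smaller differences that mostly did not pass the test. The median log2 fold change of the 122 members was −0.63 against 0.10 for all genes. An unadjusted limma p under 0.05 was found for 63 members and for 1501 of all 5404 genes. Only RPS10B, of the 40S subunit, passed after adjustment, where 16.2% of all genes did and 2.35% were lower. It had 753 and 644 FPKM on glucose and 419 and 386 on maltose (−0.79 ± 0.23, limma adjusted p = 0.0465). RPL18B, RPL9A, RPL22A and RPS22A had the lowest log2 fold changes, from −0.94 to −0.85, and RPL16A, RPL2B, RPL34B and RPS24B the highest, from −0.12 to −0.00. The latter all lie on S. eubayanus chromosome 9, and a difference of the chromosome as a whole was not tested. RPL16A had 1160 and 1050 FPKM on glucose and 1157 and 1050 on maltose. The count moved with the samples in the fit. Without the library of few reads in the fit 54 members fell, and with only the 2 compared groups 77 did, although no member passed when any 1 of the 4 cultures was left out.

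Between maltotriose and maltose in IMX1939, the median was −0.70 beside −0.09 for all genes, and 3 members fell where 1.48% of all genes passed the test and 1.04% were lower. These were RPL34B, RPL2B and RPL16A, which are also 3 of the 4 members that had differed least between maltose and glucose, a comparison that shares the maltose cultures. All 3 lie on chromosome 9, and a difference of the chromosome as a whole was not tested here either. RPL34B had 1039 and 1014 FPKM on maltose and 521 and 340 on maltotriose (−1.28 ± 0.23, limma adjusted p = 0.0274). RPL2B, close to the peptidyl transferase centre, went from 2205 and 2041 to 1073 and 760 (−1.23 ± 0.19, limma adjusted p = 0.0201) and RPL16A from 1157 and 1050 to 605 and 396 (−1.17 ± 0.22, limma adjusted p = 0.0329). Without the library of few reads, 62 members fell. Without the second maltotriose culture none passed and the median was −0.39.

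In IMX1765, which still carries SeMALT1, the same direction was seen with smaller size. On maltose the median log2 fold change was −0.40 against −0.05 for all genes, 120 of 122 members were below 0, and none passed the test (limma, 5 at an unadjusted p under 0.05, 1 with limma voom on recovered reads), where 9.34% of all genes passed. An unadjusted limma p under 0.05 was found for 1085 of all 5404 genes. RPL18B, RPL13A, RPL9A and RPS26B were lowest, from −0.85 to −0.65. RPS22B had 346 and 323 FPKM on glucose and 428 and 353 on maltose (0.22 ± 0.21, limma adjusted p = 0.636), and RPL22B had 444 and 397 against 536 and 380 (0.10 ± 0.25), which overlap. With only the 2 compared groups in the fit 44 members fell, and without the library of few reads 7.

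On maltotriose, IMX1765 is represented by 1 library of usual depth and 1 of few reads, which stood apart. The median log2 fold change was −0.53, beside −0.04 for all genes, and RPL2B alone fell, where 6.18% of all genes passed and 1.59% were lower. It had 2900 and 2944 FPKM on glucose, 1913 in the library of few reads and 1461 in the other (−0.81 ± 0.19, limma adjusted p = 0.0422). In IMX1939 on glucose RPL2B had 2232 and 2075. It lies on chromosome 9, and a difference of the chromosome as a whole was not tested. The median was −0.92 and 100 members fell without the library of few reads, while without the deep library the median was −0.15 and none passed. The 2 cultures of this group thus gave different answers, and the depth of the first one moved with that difference. Its part in it was not tested.

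The strains differed little from each other. On glucose, no member passed the test between IMX1765 and CDFM21L.1 (limma, median −0.18, 1 at an unadjusted p under 0.05, 0.037% of all genes called), between IMX1939 and CDFM21L.1 (median −0.15, 2 at an unadjusted p under 0.05, 0.222% called) or between IMX1939 and IMX1765 (median 0.02, 4 at an unadjusted p under 0.05, 1.3% called). Of all 5404 genes 311, 527 and 576 had an unadjusted limma p under 0.05 in these comparisons, in this order. For the first of these, a fit on the 2 compared groups alone gave 77 members lower and 17 higher. The share of all genes called in that fit is not given here, so these counts are not read as particular to the members. RPS9A, whose protein acts in decoding accuracy, had the lowest log2 fold change against CDFM21L.1 in both engineered strains, with 444 and 399 FPKM in CDFM21L.1, 180 and 157 in IMX1765 and 184 and 176 in IMX1939. The groups do not overlap, but the log2 fold changes of −1.32 ± 0.54 and −1.22 ± 0.54 did not pass (limma adjusted p = 0.849 and 0.511), and both comparisons share the cultures of CDFM21L.1. RPL18B had 273 and 255 FPKM in CDFM21L.1, 136 and 134 in IMX1765 and 266 and 225 in IMX1939. RPS14B had 527 and 480 in CDFM21L.1, 509 and 504 in IMX1765 and 319 and 299 in IMX1939.
On maltose, IMX1939 had a median of −0.21 against IMX1765, beside 0.13 for all genes, and again no member passed (limma, 6 at an unadjusted p under 0.05, 0% of all genes called). The response to maltose was not shown to differ between these strains for any member (limma interaction, median −0.22, none at an unadjusted p under 0.05, 0% of all genes called). Of all 5404 genes, 495 had an unadjusted limma p under 0.05 in the comparison on maltose and 263 in the interaction.

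In the hybrid, maltose gave a small and even decrease. The median log2 fold change was −0.34 in both subgenomes, beside −0.01 for all genes, and in 242 of 246 members both maltose cultures were below both glucose cultures, which held for 31.4% of all genes. By the test 20 members fell and none rose, where 11.4% of all genes passed and 2.98% were lower. RPL15B of S. eubayanus fell from 355 and 373 FPKM to 257 and 223 (−0.60 ± 0.12, limma adjusted p = 0.0222), and RPS25B of S. cerevisiae from 1002 and 1054 to 746 and 655 (−0.55 ± 0.11, limma adjusted p = 0.0248). RPS15, RPS26B, RPL15A, RPL24B and RPL31A fell in both subgenomes. RPS9A of S. cerevisiae had the lowest log2 fold change, −0.89 ± 0.23, with 178 and 172 on glucose and 122 and 71.9 on maltose, and did not pass (limma adjusted p = 0.0519). Without the first maltose culture 228 members fell, without the second 2 did, and without either glucose culture none did.

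**Figure D2:**
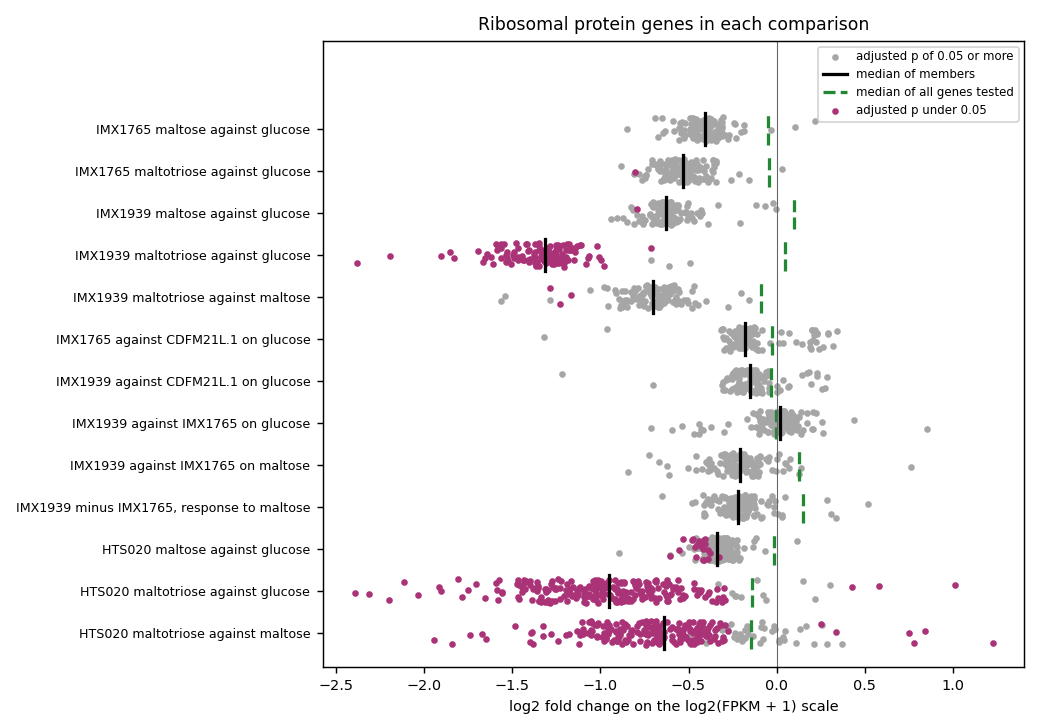
Log2 fold changes of all ribosomal protein genes in the 13 comparisons, on the log2(FPKM + 1) scale. Each dot is a gene, coloured where the adjusted p was under 0.05, the black bar is the median of the members and the dashed green bar the median of all genes tested. The members of IMX1939 on maltotriose against glucose lie between −2.38 and −0.49, and those of HTS020 between −2.39 and 1.01.

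Maltotriose against glucose in HTS020 gave a decrease of most members with a wide spread and a few exceptions. Of 246 members, 232 fell and 3 rose, where 71% of all genes passed the test, 39.7% lower and 31.3% higher. The median log2 fold change was −0.95, beside −0.14 for all genes, and it was −0.79 after rescaling the libraries by median ratios, which moved the median of all genes to 0.01. The S. eubayanus and S. cerevisiae members had medians of −0.97 and −0.94, the 40S and 60S members −0.88 and −1.0, and the A and B copies −0.99 and −0.93. Of the 119 S. eubayanus copies that fell in IMX1939, 113 also fell in the hybrid, which is 95.0% of the first and 100% of the second list. With 119 and 113 of the 122 copies called, a large overlap would arise whatever the relation of the lists. In 107 of the 122 the log2 fold change was lower in IMX1939. Levels of the strains and the hybrid were normalized separately, and the difference in size was not tested.

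RPL9A had the largest falls of both subgenomes, as it went from 1167 and 1230 FPKM to 256 and 202 for the S. cerevisiae copy (−2.39 ± 0.15, limma adjusted p = 1.6e-05) and from 1001 and 1063 to 215 and 199 for the S. eubayanus copy (−2.31 ± 0.12, limma adjusted p = 9.02e-06). RPS26B of S. cerevisiae, which contacts the mRNA at the exit of its channel, went from 788 and 831 to 171 and 180 (−2.20 ± 0.10). RPS22A of S. cerevisiae went from 2322 and 2326 to 544 and 529 (−2.11 ± 0.11). The replicates of the hybrid lay close together, and the SEs were smaller than in IMX1939.

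Members with other roles fell less than the copies with the largest falls, and lay on both sides of the member median of −0.95. RPL10 went from 3137 and 3106 to 2019 and 2068 for the S. eubayanus copy (−0.61 ± 0.09) and from 2194 and 2141 to 1420 and 1460 for that of S. cerevisiae (−0.59 ± 0.11). RPL3 went from 2340 and 2227 to 963 and 949 for S. eubayanus (−1.25 ± 0.10) and RPL30 from 1800 and 1815 to 822 and 797 (−1.16 ± 0.10), with −1.30 ± 0.10 and −0.69 ± 0.10 for their S. cerevisiae copies. RPL5 had −0.92 ± 0.13 and −1.09 ± 0.13, RPL11A −0.78 ± 0.10 and −1.17 ± 0.10 and RPL11B −1.56 ± 0.12 and −1.25 ± 0.11 for S. eubayanus and S. cerevisiae. RPS25A did not pass in either subgenome, with 2646 and 2650 FPKM on glucose and 2461 and 2614 on maltotriose for the S. eubayanus copy (−0.06 ± 0.08, limma adjusted p = 0.524).

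The 3 members that rose were both copies of RPS14B, whose protein lies on the platform of the small subunit, and RPS22B of S. eubayanus. RPS14B of S. eubayanus had 245 and 243 FPKM on glucose and 486 and 497 on maltotriose (1.01 ± 0.11, limma adjusted p = 2.24e-04), and that of S. cerevisiae had 253 and 256 against 390 and 372 (0.58 ± 0.11, limma adjusted p = 0.00294). RPS22B of S. eubayanus had 74.1 and 73.9 against 102 and 97.8 (0.43 ± 0.16, limma adjusted p = 0.0459), and this call was lost when any 1 culture was left out (limma adjusted p from 0.109 to 0.163). RPS22B of S. cerevisiae had 145 and 143 against 172 and 162 (0.21 ± 0.12, limma adjusted p = 0.144). RPL22B of S. eubayanus had 211 and 215 against 251 and 275 (0.30 ± 0.23, limma adjusted p = 0.276), while RPL22B of S. cerevisiae fell from 151 and 157 to 86.3 and 82.8 (−0.86 ± 0.20, limma adjusted p = 0.00614). RPS22B of S. cerevisiae holds the small nucleolar RNA SNR44 in an intron, and whether intronic reads entered the counts is not given in the sources used here.

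Against maltose, maltotriose gave 201 members lower and 6 higher in HTS020, where 64.8% of all genes passed, 36.7% lower and 28.1% higher, with a median of −0.64 beside −0.15 for all genes. The 6 were RPS14B of both subgenomes (1.22 ± 0.11 and 0.84 ± 0.11 for S. eubayanus and S. cerevisiae), RPS22B, RPL22B and RPS30B of S. eubayanus and RPS25A of S. cerevisiae. RPS22B of S. eubayanus rose from 67.0 and 49.7 FPKM to 102 and 97.8 (0.78 ± 0.16, limma adjusted p = 0.00437) and RPL22B from 205 and 119 to 251 and 275 (0.75 ± 0.23, limma adjusted p = 0.0261). Without either maltotriose culture RPL22B did not pass (limma adjusted p = 0.0829 and 0.131). RPL9A of S. cerevisiae and S. eubayanus fell most (−1.94 ± 0.15 and −1.84 ± 0.12). These values share the maltotriose cultures with the comparison against glucose.

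**Figure D3:**
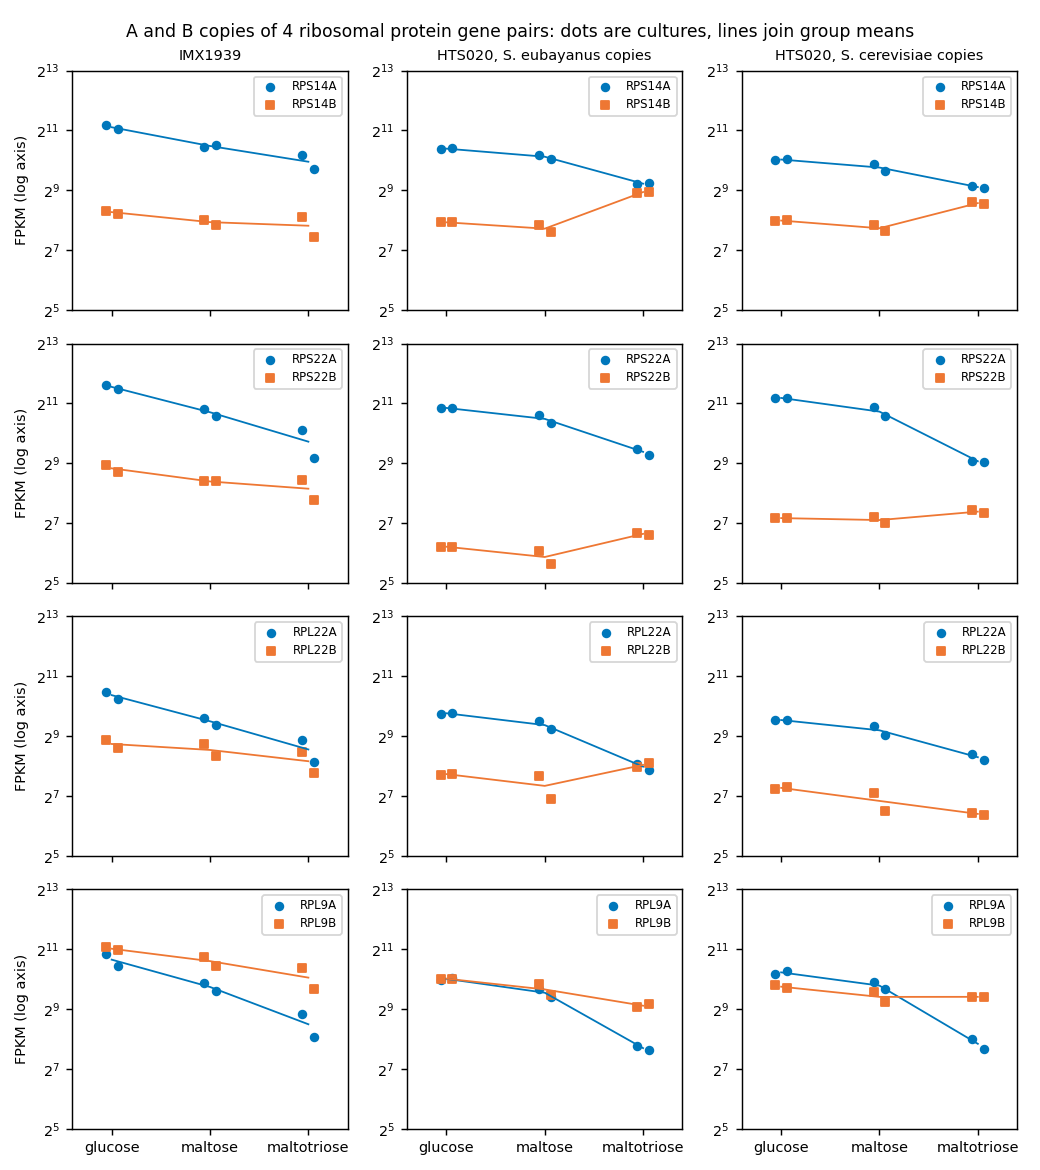
FPKM (log axis) of the A and B copies of RPS14, RPS22, RPL22 and RPL9 on each sugar, in IMX1939 and in the S. eubayanus and S. cerevisiae subgenomes of HTS020. Dots are cultures and lines join the means of 2 cultures. RPS14B of S. eubayanus stands at 245 and 243 on glucose and at 486 and 497 on maltotriose in HTS020, while RPS14A stands at 1320 and 1368 and at 592 and 603.

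The A and B copies of a pair differed in level by 1.6-fold at the median over the 52 pairs of the S. eubayanus strains that could be placed by their neighbours. The A copy had the higher FPKM in all 14 libraries in 25 pairs and the B copy in 17, and 10 pairs were mixed. In 19 pairs the mean difference exceeded 2-fold, and per coding length in 15. Among the pairs reported here, RPS9B exceeded RPS9A 8.59-fold, RPS22A exceeded RPS22B 5.79-fold, RPS14A exceeded RPS14B 4.97-fold, RPL43A exceeded RPL43B 4.71-fold and RPL15A exceeded RPL15B 4.35-fold. The annotated spans differ for RPS22A and RPS22B (393 and 884 bp) and for RPL43A and RPL43B (300 and 567 bp). Their log2 differences were 2.53 and 2.24 per span and 1.37 and 1.32 per coding length. The copies of RPS4 (1.03-fold), RPS21 (1.04-fold), RPS6 (1.04-fold) and RPL16 (1.05-fold) were closest, and in all 4 pairs the order of the copies changed between libraries. Of the 17 pairs in which each annotated name occurs once, the first name was higher in 14, and in 11 on reads not divided by length.

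In HTS020, 51 pairs of S. cerevisiae and 52 of S. eubayanus could be placed. RPL15A exceeded RPL15B 38.7-fold in the S. cerevisiae subgenome and 5.74-fold in the S. eubayanus subgenome. RPS22 (15.8-fold in S. eubayanus and 8.56-fold in S. cerevisiae) and RPL36, with the B copy 6.36-fold higher in S. cerevisiae, also differed. The RPS22B span is 884 bp in S. eubayanus and 1541 bp in S. cerevisiae, against 393 bp for RPS22A in both. Per coding length the log2 difference of the RPS22 copies was 2.83 in S. eubayanus and 1.14 in S. cerevisiae, against 3.98 and 3.10 per span. Over the 50 pairs placed in the strains and in both subgenomes, the same copy was the higher per coding length in all 3 places in 43 pairs. Strains and hybrid carry the same S. eubayanus gene models, and the order of copies was shared in 47 of 50 pairs between them.

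The balance of the copies moved with the sugar. The measure is the log2 ratio of the A to the B copy, tested between sugars with limma over all pairs. Among pairs named as annotated, 9 of 17 shifted in IMX1939 on maltotriose (45% of all 20 pairs tested) and 36 of 45 in HTS020 (80.4% of 51). Among pairs placed by neighbours, 22 of 52 shifted in IMX1939 (40% of 55) and 76 of 103 in HTS020 (74.3% of 109). These backgrounds consist almost wholly of the members themselves. On maltose none shifted among annotated pairs in any strain (0% of all pairs tested), and among placed pairs 2 shifted in IMX1765 (3.64%), 4 in IMX1939 (7.27%) and none in HTS020 (0%). Shifts went both ways, with 9 towards A and 13 towards B in IMX1939 and 38 each way in HTS020.

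RPS14, RPS22, RPL22 and RPL9 had the largest shifts towards the B copy in IMX1939 and in the S. eubayanus subgenome. For RPS14 the log2 ratio in IMX1939 was 2.85 and 2.81 on glucose and 2.05 and 2.26 on maltotriose (shift −0.68 ± 0.10, limma adjusted p = 0.00319). In IMX1765 it was 2.08 and 2.12 on glucose and 2.08 and 2.15 on maltose. On maltotriose it was 2.16, in the library of few reads, and 2.04. IMX1939 on glucose thus lay above IMX1765 on every sugar, and also above CDFM21L.1 on glucose. Whether the shift is particular to IMX1939 was not tested. In HTS020 the log2 ratio was 2.43 and 2.49 against 0.28 and 0.28 for S. eubayanus (−2.18 ± 0.06) and 2.04 and 2.03 against 0.53 and 0.54 for S. cerevisiae (−1.50 ± 0.05). The A copy thus stayed the higher, by a smaller margin.
For RPS22 the shift was −1.19 ± 0.20 in IMX1939, −1.89 ± 0.13 for S. eubayanus and −2.33 ± 0.08 for S. cerevisiae in HTS020. For RPL9, where the copies stood close on glucose, with log2 ratios of −0.23 and −0.53 in IMX1939, the ratio was −1.54 and −1.58 on maltotriose (−1.18 ± 0.22), and the shifts in HTS020 were −1.41 ± 0.08 and −2.05 ± 0.12 for S. eubayanus and S. cerevisiae. RPL22 differed between the subgenomes, with −2.09 ± 0.17 for S. eubayanus, −0.38 ± 0.10 for S. cerevisiae and −1.24 ± 0.29 in IMX1939.

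RPS26, RPS7, RPS28 and RPS9 moved towards the A copy. RPS26 shifted by 0.63 ± 0.14 in IMX1939 and by 1.23 ± 0.04 and 1.79 ± 0.06 in the S. eubayanus and S. cerevisiae subgenomes, and RPS7 by 0.42 ± 0.14, 1.34 ± 0.06 and 0.93 ± 0.07. RPS28 shifted by 1.27 ± 0.38 in IMX1939, where the log2 ratio was 0.30 and 0.31 on glucose and 1.04 and 2.10 on maltotriose, and by 0.66 ± 0.05 and 0.92 ± 0.10 in the hybrid. RPS9, whose A copy is the rarer, shifted by 1.20 ± 0.14 and 0.62 ± 0.17 in the hybrid and by 0.72 ± 0.37 in IMX1939 (limma adjusted p = 0.152). Of the 50 pairs placed in all 3 places, the shift passed in 21 in IMX1939, 39 in the S. eubayanus and 35 in the S. cerevisiae subgenome. It passed in all 3 for 17 pairs and had the same direction for 12 of them. Of the 21 pairs in IMX1939, 20 passed in the S. eubayanus subgenome of the hybrid, 16 with the same direction.

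**Figure D4:**
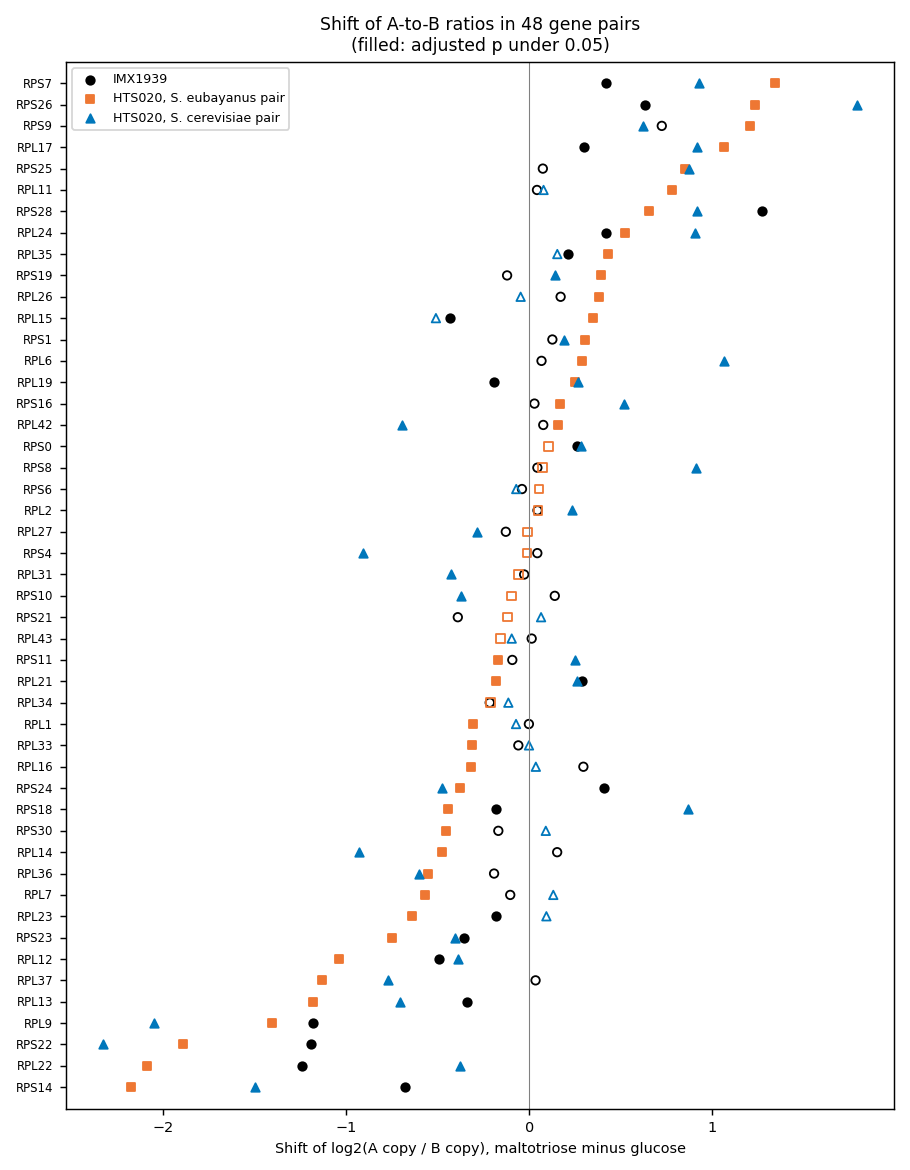
Shift of the log2 ratio of A to B copy between maltotriose and glucose for 48 of the 50 gene pairs placed in the strains and in both subgenomes. Black dots are IMX1939, orange squares the S. eubayanus and blue triangles the S. cerevisiae pairs of HTS020, filled where the adjusted p was under 0.05. RPS14, RPS22 and RPL9 lie on the left in all 3 places, with shifts from −2.33 to −0.68, and RPS26, RPS7 and RPS28 on the right, with 0.42 to 1.79. IMX1765 is not drawn, and its RPS14 ratio was 2.08 and 2.12 on glucose and 2.16 and 2.04 on maltotriose.

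Within the hybrid, the S. eubayanus and S. cerevisiae genes of the same locus were expressed at like levels, with a median log2 ratio of 0.02 over 117 placed pairs and a median difference of 1.17-fold. In 42 pairs the S. eubayanus gene was higher in all 6 libraries and in 30 the S. cerevisiae gene. Per span, the highest log2 ratios were those of RPL15B (2.72), RPS24B (1.57), RPL43A (1.44), RPL18B (1.43) and RPS26B (1.38). For RPS24B, RPL43A and RPS26B the annotated spans differ, as with 360 bp in S. eubayanus and 945 bp in S. cerevisiae for RPS26B, and per coding length these ratios were 0.30, 0.12 and −0.01. RPL15B and RPL18B kept 2.75 and 1.46. RPL15B had a mean of 245 FPKM for S. eubayanus and 34.8 for S. cerevisiae, with both spans at 615 bp. Per span, the lowest ratios were those of RPL1A (−1.11), RPL33A (−0.98), RPS22B (−0.97), RPL36B (−0.94) and RPL5 (−0.88), and for all 5 the S. cerevisiae gene was higher in every library. Per coding length RPS22B was the lowest of these 5 at −1.78, with RPL1A at −1.11, RPL33A at −1.0, RPL36B at −0.94 and RPL5 at −0.88.

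The ratio of the subgenomes moved on maltotriose but not detectably on maltose. On maltose no pair passed the test among 117 placed or 45 annotated pairs (limma, 3.19% and 3.45% of all gene pairs called). On maltotriose 56 of 117 placed pairs passed, 25 towards S. eubayanus and 31 towards S. cerevisiae, where 60% of all gene pairs did, and 19 of the 45 annotated pairs did, where 60.2% did. Shares of members were thus below those of all pairs. Large shifts were those of RPL22B (1.17 ± 0.11), RPL7B (1.02 ± 0.10) and RPS30B (0.86 ± 0.10) towards S. eubayanus, and RPS18A (−0.69 ± 0.11) and RPL42B (−0.69 ± 0.10) towards S. cerevisiae. For RPL7B the log2 ratio was −1.11 and −1.08 on glucose and −0.11 and −0.03 on maltotriose. The S. cerevisiae RPL7B gene holds the small nucleolar RNA SNR59, and whether intronic reads were counted is not given in the sources used here. RPS14B shifted by 0.43 ± 0.09 (limma adjusted p = 0.00686) and RPL9B by −0.56 ± 0.09 (limma adjusted p = 0.0025).

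**Figure D5:**
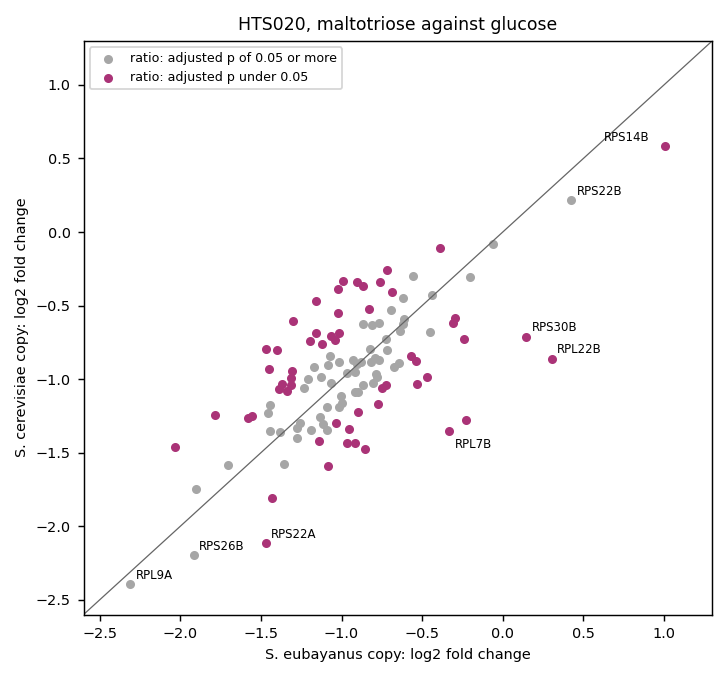
Log2 fold change between maltotriose and glucose in HTS020 for the S. eubayanus copy (x axis) and the S. cerevisiae copy (y axis) of the 117 placed gene pairs. Each dot is a pair, coloured where the ratio of the copies shifted at an adjusted p under 0.05, and the line marks equal change. RPS14B lies above 0 for both copies (1.01 and 0.58), and RPL22B and RPL7B lie far below the line.

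Genes that work with the ribosomal proteins are given by lists assembled from their functions. Against glucose, 16% of all genes were lower and 23.8% higher on maltotriose in IMX1939 (median log2 fold change 0.05), and 39.7% lower and 31.3% higher in HTS020 (median −0.14). The 5 acidic stalk proteins, which recruit elongation factors, all fell in IMX1939 on maltotriose (median −1.29), and all 10 copies fell in HTS020 (median −0.92). RPP2B of S. eubayanus fell from 4884 and 4633 FPKM to 2192 and 1503 in IMX1939 (−1.39 ± 0.27, limma adjusted p = 0.00422). Of the dedicated chaperones and transport factors, 6 of 10 fell in IMX1939 (median −1.36) and 16 of 20 copies in HTS020 (median −1.18). SQT1, the chaperone of Rpl10, went from 114 and 65.1 to 33.9 and 15.8 in IMX1939 (−1.85 ± 0.50, limma adjusted p = 0.0174).
Translation initiation factors fell in 17 of 20 gene rows in IMX1939 (median −0.91) and in 34 of 40 copies in HTS020, with 4 higher (median −1.36). Elongation factors fell in 8 of 10 gene rows in IMX1939 with 2 higher (median −0.84), and in HTS020 7 of 20 copies fell and 6 rose (median 0.02). HEF3, the sister gene of the elongation factor gene YEF3, rose from 0.938 and 0.847 to 217 and 242 FPKM for its S. eubayanus copy in the hybrid (6.92 ± 0.15). Among ribosome-bound and hibernation factors, 9 of 12 fell and 1 rose in IMX1939, and 21 of 24 copies fell and 2 rose in HTS020. TMA10 was the 1 that rose, from 6.46 and 91.3 to 2889 and 8296 in IMX1939 (7.54 ± 1.11, limma adjusted p = 0.00118).

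The 15 regulators of ribosomal protein genes tested in IMX1939 had a median of 0.16, with 3 higher and none lower, beside 23.8% of all genes higher and 16% lower. CRF1, a corepressor of ribosomal protein genes in S. cerevisiae, rose from 1.28 and 1.81 FPKM to 4.68 and 11.9 (1.76 ± 0.33, limma adjusted p = 0.00379). DOT6 and STB3, repressors of growth genes, rose by 1.65 ± 0.45 and 0.53 ± 0.14. In HTS020, 10 of 33 copies were higher and 7 lower (median −0.03), beside 31.3% of all genes higher and 39.7% lower (median −0.14). TOD6, the sister gene of DOT6 and likewise a repressor of growth genes, fell for its S. eubayanus copy from 13.4 and 17.5 to 3.88 and 3.15 FPKM (−1.86 ± 0.30, limma adjusted p = 0.00129). CRF1 rose there from 3.40 and 2.33 to 61.5 and 60.3 for S. eubayanus (4.01 ± 0.21) and from 1.70 and 1.45 to 45.4 and 45.5 for S. cerevisiae (4.17 ± 0.17). 
On maltose in HTS020, where 11.4% of all genes were called (median −0.01), none of the 10 stalk or 20 chaperone copies passed, with medians of −0.30 and −0.54. Of the 33 regulator copies 1 was lower (median −0.04), which was TOD6 of S. cerevisiae, with 29.4 and 28.5 FPKM on glucose and 14.2 and 8.95 on maltose (−1.28 ± 0.24, limma adjusted p = 0.0190). Elongation factors were lower in 4 of 20 copies (median −0.36) and initiation factors in 1 of 40 (median −0.31). Of the 24 copies of ribosome-bound and hibernation factors 2 were higher and 1 lower (median −0.30). Both higher copies were those of TMA10, and the S. cerevisiae copy went from 11.1 and 28.6 to 439 and 1761 FPKM (5.54 ± 0.65, limma adjusted p = 0.00327). The lower copy was STM1 of S. cerevisiae (−0.43 ± 0.09).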

How the data were processed

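RNA was sequenced from 20 cultures with TruSeq RNA libraries and paired reads. The authors mapped reads with STAR 2.5.3a, removed ambiguous ones and counted reads per gene, with htseq-count in the methods and Subread 1.6.3 in the submitters' processing notes. The deposited FPKM values, made by the authors with edgeR, are scaled to the reads on genes and divided by the annotated span, introns included. The count model of the methods was not used. Reads were recovered as FPKM times span, whole within 0.01 for 100% of values in the S. eubayanus table and 99.86% to 99.96% in the hybrid table, and entered shares and limma voom. Columns were assigned from their titles.

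Groups were compared with limma 3.58.1 (R 4.3.3) on log2(FPKM + 1), with an intensity trend, for genes averaging 1 FPKM or more, two-sided, with Benjamini-Hochberg adjustment over all genes of a comparison. The 14 S. eubayanus and the 6 hybrid libraries formed separate fits, as their tables were normalized separately. Ratios of copies needed an average of 10 FPKM or more in both copies. A row was placed on an S. cerevisiae R64 locus (RefSeq) where at least 3 of the 5 flanking genes on each side, counted together, supported it and at least 3 times as many as supported its sister. Tables and figures were made with Python 3.11.15.

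Members and lists were chosen with earlier results of these data known. Named were the 4 members with the highest and the 4 with the lowest log2 fold change per comparison (all in the tables, some in the text), the 5 highest and lowest by FPKM, pairs and subgenome ratios at the extremes, members with known roles, and up to 3 genes of each list. In simulated data, 85.1% of genes changed 2-fold were recovered for IMX1939 on maltotriose against glucose (5399 genes) and 98.5% for HTS020 (10987 genes). The spread between simulated cultures was a fixed setting for all genes, not taken from the data. Recovery is therefore overstated where real cultures differed more. Alternatives were another pseudocount of 0.1, no filter, rescaling by median ratios, quantile normalization, a replicate block, no trend, limma voom with TMM factors, only the compared groups, no IMX1765 maltotriose group, a lower minimum for pairs and leaving out each culture. Placement by flanking genes, coding length, the fit without the library of few reads and crossed pairing were chosen after seeing the data. The authors' tables of differential expression were not used. Results of a few members are not reported here.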

Additional observations from a re-analysis of the deposited data

Results flagged for a closer look

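The S. eubayanus copies of 4 of the 122 members moved in opposite directions between maltotriose and glucose in the hybrid HTS020 and in IMX1939. Their maltotriose cultures all lay above the glucose cultures in HTS020 and all below them in IMX1939. How many of all S. eubayanus genes moved in opposite directions was not counted, so the 4 are not read as particular to the members. Of all genes, 71% passed the test in HTS020 and 39.8% in IMX1939. The log2 fold change of RPS14B was 1.01 in HTS020 and −0.49 in IMX1939, that of RPS22B was 0.43 and −0.71, that of RPL22B was 0.30 and −0.61, and that of RPS30B was 0.15 and −1.07. The difference was not tested, because the tables of the strains and of the hybrid were normalized separately. Only RPS14B and RPS22B passed the test in HTS020, and RPS22B and RPS30B in IMX1939. All 4 are B copies that carry an intron in S. cerevisiae. Among all 122 S. eubayanus members, 84 carry such an intron and 53 are placed as B copies.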

How the results depend on the processing

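The directions of the member medians held in every comparison under rescaling and quantile normalization, whereas counts of calls on maltose depended on the settings. On maltotriose against glucose, leaving out 1 culture gave 60 to 121 members in IMX1939 (119 with all cultures). For IMX1765 on maltose, 0 members passed, against 1 with limma voom, 44 with only the compared groups, and 7 each without the IMX1765 maltotriose group and without its library of few reads. For IMX1765 on maltotriose, the count of 1 became 0 after quantile normalization, 9 with voom, 0 with only the compared groups and 0 to 100 on leaving out 1 culture. For IMX1939 on maltose, 1 became 27 after rescaling, 6 after quantile normalization, 0 without the trend, 74 with voom, 77 with only the compared groups, 54 without the IMX1765 maltotriose group or its library of few reads, and 0 without any 1 culture. For IMX1939 on maltotriose against maltose, 3 became 10 with voom, 0 with only the compared groups, 62 without that group or library, and 0 to 8 on leaving out 1 culture. For IMX1765 against CDFM21L.1, 0 became 94 with only the compared groups. For HTS020 on maltose, 20 became 11 without the filter, 77 after rescaling, 2 without the trend, 160 with voom, 4 with only the compared groups and 0 to 228 on leaving out 1 culture. Annotated pairs of the subgenomes gave 10 to 19 shifts on maltotriose on leaving out 1 culture and 56 when placed by neighbours. Pairs of copies gave 5 to 9 in IMX1939 on maltotriose, 0 to 2 in HTS020 on maltose and 1 there without the trend. Placed by neighbours, they gave 2 for IMX1765 on maltose, 4 for IMX1939 on maltose, 22 for IMX1939 on maltotriose and 76 for HTS020 on maltotriose. The share of all genes called under these other settings is not given, here or above. The counts therefore show only how far the calls on members depend on the settings. The causes were not tested.

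Cultures share only a number between groups. With the replicate block, the count of members was 3 for IMX1765 on maltotriose against glucose, 13 for IMX1939 on maltose, 6 for IMX1939 on maltotriose against maltose and 9 for HTS020 on maltose. Deviations of same-numbered cultures correlated at 0.57 to 0.70 between the groups of IMX1939. With crossed pairing, 203 members passed for HTS020 on maltotriose against maltose and 0 for IMX1939 against CDFM21L.1.

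Single members near 0 changed sign. After quantile normalization the log2 fold change was 0.0165 for RPL10 of S. cerevisiae in HTS020 on maltose, −0.0688 for RPL22B in IMX1765 on maltose, −0.0946 for RPS22B in IMX1765 on maltotriose, and 0.0627 for RPL2B and 0.0101 for RPS24B in IMX1939 on maltose. Between IMX1939 and IMX1765 on maltose, rescaling gave −0.0022 for RPL15B and −0.0503 for RPL2B, and voom −0.00013 and −0.0482. Voom gave 0.0022 for RPS9A in IMX1765 on maltose. Leaving out 1 culture gave ranges of −0.27 to 0.0293 for RPL10 and −0.17 to 0.0303 for RPS22B, both of S. cerevisiae, in HTS020 on maltose. In IMX1765 on maltose they were −0.14 to 0.35 for RPL22B, −0.47 to 0.11 for RPS30B and −0.55 to 0.49 for RPS9A, and on maltotriose −0.85 to 0.34 for RPL26A, −0.13 to 0.18 for RPS22B and −0.75 to 0.44 for RPS9A. In IMX1939 they were −0.0736 to 0.0688 for RPL16A and −0.0766 to 0.0349 for RPL2B on maltose, and, for maltotriose against maltose, −0.50 to 0.18 for RPS14B, −0.61 to 0.0497 for RPS22B and −0.90 to 0.49 for RPS9A. Between IMX1939 and IMX1765 they were −0.0181 to 0.29 for RPS2 on maltose and −1.17 to 0.21 for RPS9A in the response to maltose.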

Other observations

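At some loci the gene models differ from those of the S. cerevisiae reference. The S. eubayanus rows on chromosome 2 (298343 to 299429) and chromosome 4 (476035 to 477123) are both RPL4 genes, but each has the neighbours of RPL4A on one side and those of RPL4B on the other, and they were left out of the pairs. The RPL20A locus of the S. cerevisiae subgenome on chromosome 13 is covered by 3 models, from 698651 to 698902, 698929 to 699438 and 700297 to 701373. Their values were kept apart.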
